A study of Mus musculus with 24 samples.

Results

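The response of *Baf250a* knockdown (KD) myoblasts to copper was examined in 4 of the 24 RNA-seq libraries of the study: 2 libraries of *Baf250a* KD cells grown with 100 µM CuSO4 (Cu) and 2 of the same cells without added metal (NT). The libraries were chosen by sample title and by the name of the count column, since the titles and the treatment tag given with each sample disagree. The study grew 4 lines of mouse C2C12 myoblasts, an established skeletal muscle precursor line, each carrying a stably integrated short hairpin RNA (shRNA) kept under puromycin: a scrambled control hairpin (scr) or hairpins against *Baf180*, *Baf250a* or *Brd9*. Each line was cultured for 48 h as NT, with Cu or with 50 µM ZnSO4 (Zn), in 2 replicates per condition described as independent biological replicates. The labels call the cells primary myoblasts and their knockdowns lipofectamine-mediated, where the methods name C2C12 cells transduced with lentivirus. Every group, scr included, therefore carried an integrated hairpin and puromycin resistance, each line is a selected population rather than a set of independent clones, and neither the labels nor the methods say which *Baf250a* hairpin the sequenced line carried. The comparison asks which transcripts change when copper is added to cells short of a subunit of the canonical BAF complex.

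*Baf250a*, listed in the count table under its gene symbol *Arid1a*, encodes the large DNA-binding subunit that defines canonical BAF, a member of the SWI/SNF family of ATP-dependent nucleosome remodelers. Copper is a cofactor of cytochrome c oxidase and superoxide dismutase, yet as a free ion it cycles between oxidation states and drives the formation of reactive oxygen species. Mammalian cells meet this with metallothioneins, small cysteine-rich proteins that bind copper and zinc and are switched on by the zinc-sensing factor MTF1, and with NRF2, a factor that binds antioxidant response elements and switches on enzymes of glutathione synthesis, thioredoxin reduction, quinone reduction and heme breakdown.

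The study's supplementary list gives 2 hairpins against *Baf250a*, and their 21-base target strands are shown because they mark where the transcript of the depleted subunit is recognised. Both matched *Arid1a* transcripts of GENCODE M21 (GRCm38, minus strand of chromosome 4) without a mismatch. The target of shRNA1 lies at chr4:133679414-133679434, in the untranslated part of exon 20 of 20. The target of shRNA2 lies at chr4:133694042-133694062, in coding sequence of exon 8.
shRNA1: ctttatagtatggcgagttaa
shRNA2: cctaggcagcctaactataat

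*Arid1a* was low in every *Baf250a* KD library that was used. Its levels in CPM, which are counts divided by library size and scaled with edgeR's TMM factors, were 99.9 and 98.5 in the NT libraries, 116 and 113 in the Cu libraries and 91.8 in Zn replicate 1, whereas the scr libraries ranged from 266 to 308 CPM. Between the NT libraries of *Baf250a* KD and scr the log2 fold change was -1.53 (SE 0.10, edgeR quasi-likelihood test, Benjamini-Hochberg adjusted p = 5.31e-08, n = 2 per group). Within *Baf250a* KD cells the change of *Arid1a* with Cu was 0.21 on the log2 scale (SE 0.07, edgeR adjusted p = 0.119), and it did not pass the test.

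The 4 libraries held 16799494 to 25700122 counts, and the other libraries of the study 495778 to 75179394. The lowest of these, *Baf250a* KD Zn replicate 2, was left out of every fit here. Replicates of both groups differed by more than the sampling noise of their counts, with a chi-square per degree of freedom of 7.38 for Cu and 7.35 for NT, so none was taken for a library deposited again. All 4 libraries held transcripts of myoblasts: *Myod1*, the factor that commits cells to muscle, lay between 120 and 153 CPM, *Des*, the muscle intermediate filament protein, between 775 and 868 CPM, and *Cdh15*, M-cadherin, between 133 and 149 CPM. *Pax7*, the satellite cell factor, stood at 0.38 to 1.05 CPM. Of the markers of other cell types, *Ptprc*, *Cdh5*, *Emcn*, *Plin1*, *Lep*, *Sox10*, *Thy1* and *Tcf21* had no count in any of the 4, while the mesenchymal genes *Ly6a* (86.9 to 97.5 CPM), *Pdgfra* (53.5 to 65.9 CPM) and *Cd34* (53.6 to 56.0 CPM) were present in all. From the lists of macrophage and leukocyte and of Schwann cell and neural markers, *Cd14* was at 7.37 to 9.34 CPM, *Cd68* at 3.02 to 3.74 CPM, *Lyz2* at up to 2.16 CPM and *Tubb3* at 8.65 to 12.8 CPM.

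Copper changed 396 of 14786 genes tested (2.68%) at an adjusted p under 0.05 in edgeR's quasi-likelihood test, and these are called differentially expressed genes (DEGs). Among them 204 were higher (1.38% of genes tested) and 192 lower (1.3%). Most changes were small: 46 of the higher and 73 of the lower DEGs changed by at least 1.5-fold, and 20 and 19 by at least 2-fold. The median log2 fold change was 0.39 among the higher DEGs and -0.49 among the lower, against 0.001 over all genes tested. In 395 DEGs the Cu and NT libraries did not overlap, as in 44.98% of all genes tested. The DEGs included 370 protein-coding genes. The number of DEGs rested on the libraries in the fit: it was 262 without Cu replicate 2, 716 without NT replicate 1, 187 when both Zn libraries of the line were added and 63 when 23 libraries of the study shared 1 estimate of the spread. Offsets for GC content and length gave 620 DEGs.

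**Figure D1:**
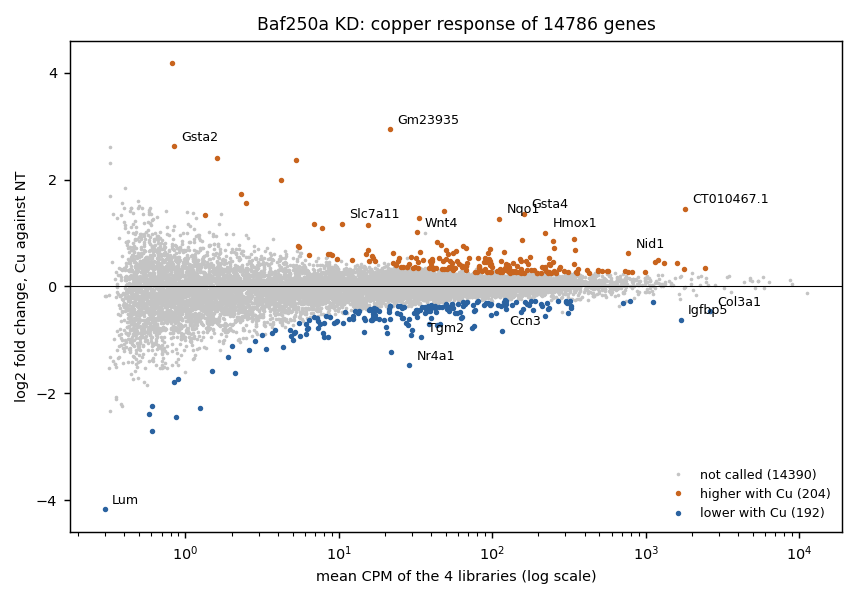
Log2 fold change with Cu of each gene tested (vertical axis) against its mean CPM over the 4 *Baf250a* KD libraries (horizontal log axis), with the 204 DEGs that were higher in orange, the 192 that were lower in blue and genes not called in gray. The higher DEGs of ample expression include *Gsta4*, *Nqo1*, *Hmox1* and *Wnt4*, and the lower include *Nr4a1*, *Tgm2*, *Ccn3* and *Igfbp5*.

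Many genes of oxidative stress defence rose together. Of 42 tested members of a list of NRF2 targets and oxidative stress defence genes, 26 were higher with Cu and none was lower. The other 16 did not pass the test, and the median log2 fold change was 0.48. Among all genes tested, 1.38% were higher DEGs and 1.3% lower DEGs. The list held 46 genes, of which *Gsta3*, *Gstm3*, *Aldh1a1* and *Gpx2* were too low to be tested. Some called members, such as *Fth1*, *Gstm1*, *Txnrd1* and *Pgd*, also belong to lists below. The lists of heme and iron handling, glutathione S-transferases, peroxide removal and NADPH enzymes thus overlap with this list, and their counts are not independent. The number of members called higher was 24 to 27 when 1 library at a time was left out and 15 in the fit of 23 libraries.

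*Gsta4* (chr9:78182774-78209349, GRCm38), a glutathione S-transferase that detoxifies products of lipid peroxidation, was at 95.7 and 84.6 CPM in the NT libraries and at 234 and 229 CPM in the Cu libraries. It changed by 1.36 on the log2 scale (SE 0.07, edgeR adjusted p = 2.86e-11). *Nqo1* (chr8:107388225-107403206), the NADPH-dependent quinone reductase, was at 65.8 and 64.1 CPM without and at 152 and 161 CPM with Cu. It changed by 1.27 on the log2 scale (SE 0.07, edgeR adjusted p = 4.28e-11). In both genes the Cu libraries lay more than 2-fold above the NT libraries, and the replicates of a group lay close to each other.

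*Hmox1* (chr8:75093621-75100589), heme oxygenase, which breaks heme into iron, carbon monoxide and biliverdin, was at 157 and 138 CPM in NT and 286 and 307 CPM in Cu cells. Its rise on the log2 scale was 1.00 (SE 0.07, edgeR adjusted p = 5.75e-09). *Slc48a1*, a heme transporter of the lysosomal membrane, was at 189 and 169 CPM without and 309 and 334 CPM with Cu (log2 fold change 0.84). *Blvrb*, biliverdin reductase B, rose by 0.61 on the log2 scale. The ferritin chains *Fth1* (1388 and 1319 CPM in NT, 1725 and 1950 CPM in Cu) and *Ftl1* (1157 and 1077 CPM in NT, 1403 and 1643 CPM in Cu), which store iron, rose by 0.44 each on the log2 scale. These were the 5 members called among 34 tested genes of heme and iron handling, none of which was lower. The median log2 fold change of the list was 0.05, and 1.38% of all genes tested were higher DEGs. The call of *Blvrb* was lost without Cu replicate 2 (edgeR adjusted p = 0.0711).

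Several genes that supply or recycle glutathione were higher with Cu. *Slc7a11*, the cystine importer, was at 5.48 and 7.46 CPM in NT and 13.7 and 15.3 CPM in Cu cells (log2 fold change 1.17, SE 0.15, edgeR adjusted p = 2.64e-05). *Gclc* and *Gclm*, the catalytic and modifier subunits of glutamate-cysteine ligase, which carries out the rate-limiting step of glutathione synthesis, rose by 0.69 and 0.75, and *Gsr*, glutathione reductase, by 0.62. In *Gclm* the levels were 47.6 and 47.7 CPM without and 84.6 and 76.2 CPM with Cu. *Gss*, glutathione synthetase, was at 41.0 and 39.2 CPM in NT and 41.9 and 46.0 CPM in Cu cells and did not pass the test (log2 fold change 0.13, edgeR adjusted p = 0.549). *Abcc1* and *Abcc4*, exporters of glutathione conjugates and other organic anions, rose by 0.52 and 0.67.

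The 18 glutathione S-transferases tested had a median log2 fold change of 0.21. While 1.38% of all genes tested were higher DEGs, 5 of the 18 were higher with Cu and none lower. Besides *Gsta4* these were *Gstm1* (95.1 and 92.2 CPM in NT, 141 and 152 CPM in Cu, log2 fold change 0.64), *Gsto1* (0.39), *Gstp1* (0.33) and *Gsta2*. *Gsta2* was barely expressed, at 0.23 CPM in each NT library and 1.69 and 1.21 CPM in the Cu libraries, and changed by 2.62 on the log2 scale (SE 0.49, edgeR adjusted p = 0.00231). Gsta and Gstm genes have close paralogs, and only uniquely mapped reads were counted, so the split of reads among the copies is uncertain. The calls of *Gstp1* and *Gsta2* were lost without NT replicate 2 (edgeR adjusted p = 0.245) and without Cu replicate 1 (edgeR adjusted p = 0.0706), respectively.

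Of 24 tested enzymes of peroxide removal, 4 were higher, 1 was lower and 19 did not pass the test. Their median log2 fold change was 0.08, and 2.68% of all genes tested were DEGs. *Txnrd1* (chr10:82833951-82897712), cytosolic thioredoxin reductase, was at 279 and 255 CPM in NT and 429 and 430 CPM in Cu cells (log2 fold change 0.68, SE 0.07, edgeR adjusted p = 1.05e-06). *Srxn1*, sulfiredoxin, which repairs over-oxidized peroxiredoxins, was at 117 and 105 CPM without and 200.4 and 208 CPM with Cu (log2 fold change 0.88). *Cat*, catalase, rose by 0.52 and *Prdx6* by 0.42. *Gpx3*, the secreted glutathione peroxidase, went the other way, from 17.9 and 19.8 CPM to 10.8 and 9.84 CPM (log2 fold change -0.86, SE 0.12, edgeR adjusted p = 9.01e-05).

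NADPH, which *Nqo1*, *Txnrd1* and *Gsr* consume, is made by the oxidative arm of the pentose phosphate pathway. *Pgd*, 6-phosphogluconate dehydrogenase, was at 210 and 169 CPM in NT and 308 and 322 CPM in Cu cells (log2 fold change 0.73, SE 0.08, edgeR adjusted p = 3.44e-06). *G6pdx*, glucose-6-phosphate dehydrogenase, rose from 150 and 138 CPM to 214 and 208 CPM, by 0.54 on the log2 scale. These were the 2 DEGs among 13 tested NADPH and pentose phosphate enzymes, where 2.68% of all genes tested were DEGs. *Esd*, S-formylglutathione hydrolase, was at 243 and 237 CPM without and 435 and 457 CPM with Cu (log2 fold change 0.89). In all 3 genes the Cu and NT libraries did not overlap, as in 44.98% of all genes tested.

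**Figure D2:**
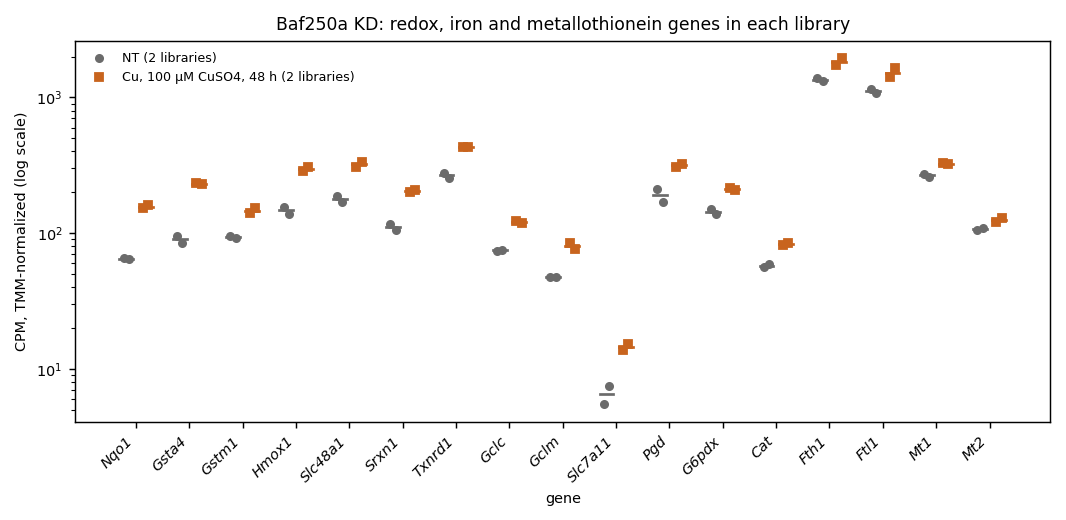
CPM (vertical log axis) of redox, iron and metallothionein genes in each *Baf250a* KD library, NT in gray and Cu in orange, with a line at the mean of the 2 libraries of a group. From *Nqo1* to *Ftl1* the Cu libraries lie above the NT libraries, and the separation is smallest for *Mt1* and *Mt2*.

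Promoter windows of RefSeq (GRCm38.p6, 250 bases before to 50 after an annotated start) were read for members of these lists that moved together. The letters TGACNNNGC, a core of the antioxidant response element, were searched on both strands. They occur in 12.4% of all 32851 windows, and a match can also hold the AP-1 letters TGACTCA. Among the 26 higher members of the NRF2 list, 19 had a window, and in 6 of these at least 1 window held a match. These genes had 26 windows, of which 7 held a match, and the share of all windows is to be set beside the latter count only. The windows of *Gclm* (chr3:122245307-122245606, plus strand), *Txnrd1* (an internal start, chr10:82858956-82859255, plus strand) and *G6pdx* (chrX:74428831-74429130, minus strand) are shown as examples, 5′ to 3′ along the gene, with the match in capitals. All 3 matches read on the strand opposite to the gene. Among genes of larger rise with a window, *Gsta2*, *Nqo1*, *Slc7a11* and *Esd* held no match and *Srxn1* held 1. The other windows of *Txnrd1* held none.
Gclm: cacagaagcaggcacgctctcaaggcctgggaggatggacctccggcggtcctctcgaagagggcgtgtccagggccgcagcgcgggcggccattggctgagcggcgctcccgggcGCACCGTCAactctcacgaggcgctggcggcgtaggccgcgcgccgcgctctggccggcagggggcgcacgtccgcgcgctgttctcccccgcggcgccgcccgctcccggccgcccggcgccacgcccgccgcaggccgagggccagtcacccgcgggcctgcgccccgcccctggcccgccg
Txnrd1: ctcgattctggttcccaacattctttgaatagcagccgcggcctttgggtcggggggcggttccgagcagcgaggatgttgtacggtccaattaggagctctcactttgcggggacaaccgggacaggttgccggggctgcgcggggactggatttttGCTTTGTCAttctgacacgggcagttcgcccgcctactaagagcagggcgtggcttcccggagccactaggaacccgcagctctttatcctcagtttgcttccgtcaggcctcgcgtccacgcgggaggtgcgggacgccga
G6pdx: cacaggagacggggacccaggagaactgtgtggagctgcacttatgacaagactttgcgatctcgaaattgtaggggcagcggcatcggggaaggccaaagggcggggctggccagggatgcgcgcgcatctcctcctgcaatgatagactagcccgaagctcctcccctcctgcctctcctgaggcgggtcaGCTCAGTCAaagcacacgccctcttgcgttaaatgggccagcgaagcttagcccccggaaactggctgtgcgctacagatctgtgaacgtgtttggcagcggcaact

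Metallothioneins and the copper transport machinery moved little. *Mt1* (chr8:94179082-94180327) was at 272 and 260 CPM in NT and 328 and 323 CPM in Cu cells. This rise of 0.29 on the log2 scale passed the test (SE 0.07, edgeR adjusted p = 0.0135). *Mt2* (chr8:94172664-94173568) was at 106 and 109 CPM without and 120 and 129 CPM with Cu, a log2 fold change of 0.21 that did not pass the test (SE 0.07, edgeR adjusted p = 0.107). The Cu libraries lay above the NT libraries in both genes, and the groups did not overlap in 44.98% of all genes tested. The call of *Mt1* was lost without Cu replicate 1 (edgeR adjusted p = 0.0732) and without Cu replicate 2 (edgeR adjusted p = 0.0636).

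For scale, the single Zn library that was used held 495 CPM of *Mt1*, 212 CPM of *Mt2* and 49.3 CPM of *Slc30a1*, the zinc exporter that MTF1 induces. *Slc30a1* was at 25.4 and 29.3 CPM in NT and 23.98 and 25.2 CPM in Cu cells, and its log2 fold change, -0.16, did not pass (SE 0.10, edgeR adjusted p = 0.515). *Mtf1* itself changed by 0.16 (SE 0.09, edgeR adjusted p = 0.415). *Mt1* was thus the only DEG among the 5 tested genes of its list of 6, with *Mt3* too low to test. No zinc transporter was called among 16 tested, with log2 fold changes of -0.16 to 0.24, and 2.68% of all genes tested were DEGs.

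The letters TGCACNC and TGCGCNC, the core of the metal response element that MTF1 binds, occur on either strand in 25.7% of all RefSeq windows. The 6 genes of the metallothionein list had 7 windows, of which 4 held a match. The share of all windows is to be set beside this count only. *Slc30a1*, with a log2 fold change of -0.16, held 2 matches and *Mt3* held 1. *Mtf1* and *Slc39a10* held none. The windows of *Mt1* (chr8:94178839-94179138, plus strand) and *Mt2* (chr8:94172368-94172667, plus strand) are shown, matches in capitals, because they held 3 and 4 matches. No other motif search was made in them.
Mt1: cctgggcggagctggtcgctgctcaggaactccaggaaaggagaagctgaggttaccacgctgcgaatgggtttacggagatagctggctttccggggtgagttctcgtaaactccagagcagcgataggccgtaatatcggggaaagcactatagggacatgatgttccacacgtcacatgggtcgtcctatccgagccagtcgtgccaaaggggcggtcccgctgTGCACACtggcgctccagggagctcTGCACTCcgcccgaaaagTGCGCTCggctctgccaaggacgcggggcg
Mt2: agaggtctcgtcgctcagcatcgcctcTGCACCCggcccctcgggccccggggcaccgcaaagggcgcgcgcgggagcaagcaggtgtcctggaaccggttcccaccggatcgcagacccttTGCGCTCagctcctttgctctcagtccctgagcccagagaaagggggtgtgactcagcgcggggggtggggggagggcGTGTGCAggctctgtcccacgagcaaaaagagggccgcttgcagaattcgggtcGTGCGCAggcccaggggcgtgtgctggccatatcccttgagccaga

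Among 29 tested genes of copper transport, copper chaperones and copper enzymes, 2 were higher and 1 was lower. Their median log2 fold change was 0.01, and 2.68% of all genes tested were DEGs. *Cox17*, the chaperone that delivers copper to cytochrome c oxidase, fell from 11.7 and 11.5 CPM to 7.51 and 6.76 CPM (log2 fold change -0.69, SE 0.14, edgeR adjusted p = 0.00444). Besides *Mt1*, the higher member was *Crip2*, a LIM-domain protein, with 479 and 401 CPM in NT and 539 and 536 CPM in Cu cells (log2 fold change 0.29). The call of *Crip2* was lost under RLE scaling, under upper quartile scaling and without Cu replicate 1, Cu replicate 2 or NT replicate 2 (edgeR adjusted p = 0.0506 to 0.404).

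The copper importer and exporter did not pass the test. *Slc31a1*, the high-affinity copper importer CTR1, was at 69.3 and 68.1 CPM in NT and 78.1 and 69.5 CPM in Cu cells (log2 fold change 0.10, SE 0.08, edgeR adjusted p = 0.592). *Atp7a*, the copper-exporting ATPase, was at 55.0 and 56.2 CPM without and 56.1 and 49.0 CPM with Cu, so its groups overlapped (log2 fold change -0.08, SE 0.09, edgeR adjusted p = 0.733). None of 13 genes of protein lipoylation and pyruvate dehydrogenase, the enzymes that copper aggregates in cuproptosis, was called, with a median log2 fold change of 0.03.

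Other stress programs gave few and mixed calls, to be set beside the 2.68% of all genes tested that were DEGs. Of 25 tested genes of the ATF4 integrated stress response, 5 were lower and 1, *Slc7a11*, was higher, with a median log2 fold change of -0.10. The lower members were *Vldlr* (-0.58), *Nupr1* (-0.49), *Chac1* (-0.41), *Pck2* (-0.36) and *Herpud1* (-0.33). DESeq2 did not call *Vldlr* (adjusted p = 0.0586). No member was called lower in the fit of 23 libraries or in a test against a fold of 1.2. *Chac1*, a glutathione-degrading enzyme, stood at 48.1 and 48.3 CPM in NT and 36.3 CPM in each Cu library. The members called lower numbered 3 without Cu replicate 1, where *Herpud1* and *Pck2* were lost (edgeR adjusted p = 0.0906 and 0.123), and 3 without NT replicate 2, where *Vldlr* and *Pck2* were lost (0.134 and 0.0505). *Hspa5*, the chaperone of the endoplasmic reticulum, fell by 0.31 on the log2 scale, from 778 and 799 CPM to 637 and 635 CPM (edgeR adjusted p = 0.0102, and 0.0660 without Cu replicate 2). Among 22 heat shock chaperones the other DEG was *Cryab*, the small chaperone of muscle, which rose from 217 and 194 CPM to 258 and 289 CPM (log2 fold change 0.41).

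Of 24 tested genes of p53 and its targets, *Mdm2*, the p53 ubiquitin ligase, rose by 0.37 and *Tnfrsf10b*, a death receptor, by 0.36, while *Sesn1* fell by 0.40 on the log2 scale. *Mdm2* was at 115 and 111 CPM without and at 146 CPM in both libraries with Cu. The call of *Sesn1* was lost with DESeq2 (adjusted p = 0.0980) and without Cu replicate 1 or Cu replicate 2. Over all genes tested 2.68% were DEGs.

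Immediate early genes, which growth factor signals switch on within minutes, split into members that fell and members that rose. *Nr4a1* (chr15:101254269-101274795), an orphan nuclear receptor, was at 28.4 and 56.4 CPM in NT and 16.1 and 14.1 CPM in Cu cells (log2 fold change -1.48, SE 0.19, edgeR adjusted p = 3.53e-05). *Egr3* was at 21.7 and 39.8 CPM without and 14.6 and 11.2 CPM with Cu (log2 fold change -1.23, edgeR adjusted p = 0.000216). In both genes NT replicate 2 stood well above NT replicate 1, and the Cu libraries lay below both. Without NT replicate 2 the log2 fold change was -0.91 for *Nr4a1* and -0.74 for *Egr3*. With 1 NT library left, that fit holds no measure of the spread between NT libraries.

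*Fosb* was at 5.91 and 6.06 CPM in NT and 3.07 and 2.29 CPM in Cu cells, a log2 fold change of -1.14, and *Egr2* changed by -0.52 with an edgeR adjusted p of 0.0490. *Arc*, a neuronal immediate early gene outside the list, also fell (-0.87), and its call was lost without NT replicate 2 (log2 fold change -0.53, edgeR adjusted p = 0.139). In the other direction, *Fosl1* was at 68.3 and 64.4 CPM in NT and 94.8 and 96.8 CPM in Cu cells (log2 fold change 0.53), *Myc* rose by 0.43 and *Dusp1*, a phosphatase of MAP kinases, by 0.42. Of the 24 members tested 3 were thus higher and 4 lower, where 2.68% of all genes tested were DEGs. DESeq2 called no member of the list lower, with adjusted p = 0.0620 for *Nr4a1*, 0.135 for *Egr3* and 0.150 for *Egr2*, and it gave no adjusted p for *Fosb*. The call of *Egr2* was also lost without Cu replicate 2 (edgeR adjusted p = 0.249) or NT replicate 2 (0.414).

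Several genes of the extracellular matrix fell. While 1.3% of all genes tested were lower DEGs, 9 of 28 tested matricellular proteins and small proteoglycans were lower with Cu. None of the 28 was higher, and their median log2 fold change was -0.20. Without Cu replicate 2 the number called lower was 5, and in the fit of 23 libraries it was 3. *Ccn3* (chr15:54745702-54754039), a secreted CCN-family regulator of adhesion and growth, was at 139 and 160 CPM in NT and 86.4 and 81.5 CPM in Cu cells (log2 fold change -0.83, SE 0.08, edgeR adjusted p = 2.82e-07). *Tgm2*, the transglutaminase that crosslinks matrix proteins, was at 45.9 and 44.3 CPM without and 24.8 and 21.6 CPM with Cu (log2 fold change -0.96, SE 0.10, edgeR adjusted p = 1.11e-06). The groups of both genes were well apart.

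The small leucine-rich proteoglycans *Dcn* (decorin, log2 fold change -0.77), *Prelp* (-0.59) and *Fmod* (fibromodulin, -0.49) fell as well. *Dcn* was at 25.1 and 26.1 CPM in NT and 17.5 and 12.4 CPM in Cu cells. *Lum*, lumican, was also called, at 0.62 and 0.52 CPM in NT and 0 and 0.06 CPM in Cu cells, which is 28 counts over the 4 libraries and gives no reliable fold, and its call was lost without Cu replicate 1 or Cu replicate 2 (edgeR adjusted p = 0.245 and 0.0625). *Thbs2*, *Postn* and *Spp1* fell by 0.42, 0.35 and 0.30 on the log2 scale. The call of *Fmod* was lost without Cu replicate 2 (edgeR adjusted p = 0.208). *Dcn* and *Lum* are also 2 of the 6 fibroblast markers that were tested, and the other tested markers of that list, *Pdgfra*, *Ly6a*, *Cd34* and *Pi16*, were not called. Fewer cells of a given kind and less RNA of a gene per cell cannot be told apart in bulk RNA.

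Of 22 collagens tested, 4 were lower, 2 higher and 16 did not pass the test, while 2.68% of all genes tested were DEGs. No collagen was called in either direction in the fit of 23 libraries. *Col3a1* (chr1:45311538-45349706), *Col6a1*, *Col6a2* and *Col11a1* fell by 0.46, 0.50, 0.45 and 0.49 on the log2 scale. *Col3a1* was at 2942 and 3103 CPM in NT and 2252 and 2149 CPM in Cu cells (SE 0.07, edgeR adjusted p = 0.000510). *Col6a1* was at 361 and 365 CPM without and 257 CPM in both libraries with Cu (SE 0.07, edgeR adjusted p = 3.53e-05). The paired basement membrane chains *Col4a1* and *Col4a2*, which lie head to head on chromosome 8, rose by 0.28 and 0.29 (edgeR adjusted p = 0.0207 and 0.0200). Their calls were lost without Cu replicate 2 (edgeR adjusted p = 0.158 and 0.196), and that of *Col4a2* also without NT replicate 2 (0.0588).

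*Nid1* (chr13:13437551-13512269), nidogen, which links collagen IV to laminin, rose from 608 and 602 CPM to 933 and 930 CPM (log2 fold change 0.62, SE 0.07, edgeR adjusted p = 3.81e-06). The collagen-binding integrin chains *Itga11* (74.0 and 75.5 CPM to 50.7 and 48.4 CPM) and *Itga1* (7.80 and 8.03 CPM to 4.12 and 5.19 CPM) fell by 0.59 and 0.78. The call of *Itga1* was lost without Cu replicate 1 (edgeR adjusted p = 0.118). Over 29 basement membrane, laminin and integrin genes 1 was higher and 2 were lower, where 2.68% of all genes tested were DEGs.

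**Figure D3:**
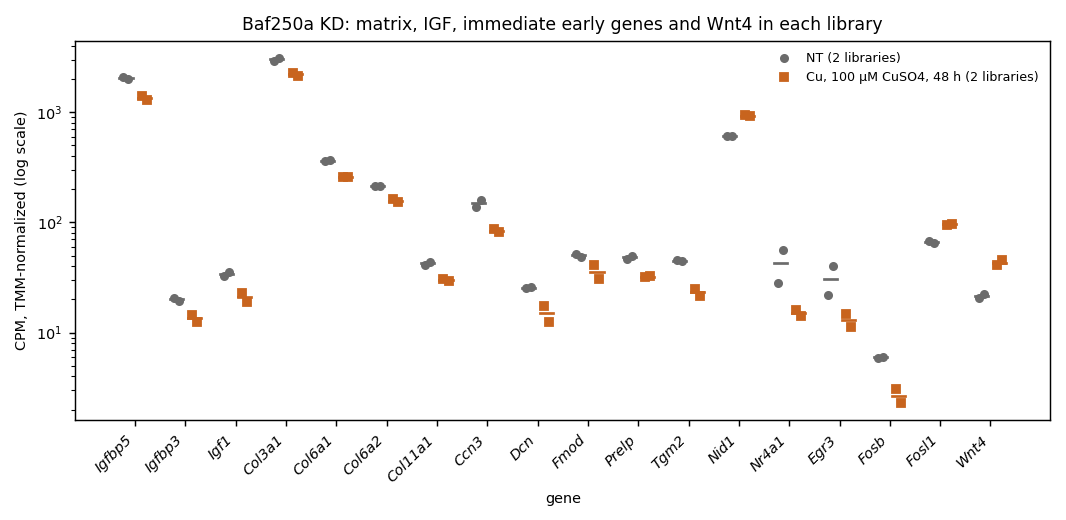
CPM (vertical log axis) of IGF, matrix and immediate early genes and of *Wnt4* in each *Baf250a* KD library, NT in gray and Cu in orange, with a line at the mean of the 2 libraries of a group. Most lie lower with Cu, *Nid1*, *Fosl1* and *Wnt4* lie higher, and the NT libraries of *Nr4a1* and *Egr3* are spread apart.

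Of 21 tested genes of insulin-like growth factor (IGF) signaling, 3 were lower, 1 was higher and 17 did not pass the test. Their median log2 fold change was -0.05, and 2.68% of all genes tested were DEGs. In the fit of 23 libraries 1 of the 21 was lower. *Igfbp5* (chr1:72857932-72874884), an abundant secreted IGF-binding protein of myoblasts, was at 2093 and 2017 CPM in NT and 1388 and 1278 CPM in Cu cells (log2 fold change -0.63, SE 0.07, edgeR adjusted p = 9.34e-06). *Igf1*, the growth factor, was at 32.6 and 35.4 CPM without and 22.98 and 18.9 CPM with Cu (log2 fold change -0.69, SE 0.10, edgeR adjusted p = 0.000260). *Igfbp3* fell by 0.57. *Irs2*, an adaptor that carries the signal inside the cell, rose by 0.41.

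*Wnt4* (chr4:137277489-137299726), a secreted ligand that acts in muscle cell fate, was at 20.5 and 22.2 CPM in NT and 40.8 and 45.6 CPM in Cu cells. It rose by 1.01 on the log2 scale (SE 0.10, edgeR adjusted p = 5.92e-07), and the Zn library stood at 19.0 CPM. Of the other 31 tested Wnt ligands, receptors and antagonists only the antagonist *Sfrp2* was called (-0.27), and that call was lost without Cu replicate 2 or NT replicate 2 (edgeR adjusted p = 0.349 and 0.136). Of 15 Notch genes, the target *Heyl* (-0.93) and the receptor *Notch3* (-0.29) fell. Of 40 genes of TGF-beta and BMP signaling, the activin antagonist *Fst* rose (0.38), and the BMP-responsive genes *Id3* (-0.41) and *Id2* (-0.29) fell. DESeq2 did not call *Id2* (adjusted p = 0.0697). These few calls are to be set beside the 2.68% of all genes tested that were DEGs. The calls of *Fst*, *Id3* and *Id2* were lost without Cu replicate 1 (edgeR adjusted p = 0.107, 0.0948 and 0.262), that of *Id2* also without NT replicate 1 or NT replicate 2 (0.0778 and 0.0595), and that of *Notch3* without Cu replicate 2 (0.224).

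None of 23 myogenic transcription factors tested was called, with a median log2 fold change of 0.02. In sarcomere, contraction and fusion genes 10 of 33 had a log2 fold change above 0 and the median was -0.34, but only 3 passed the test, all lower: *Atp2a1*, the calcium pump of the sarcoplasmic reticulum (14.5 and 14.9 CPM to 9.43 and 10.7 CPM, log2 fold change -0.55), *Pdlim3* (-0.47) and *Actn3* (-0.45). The call of *Atp2a1* was lost with DESeq2 (adjusted p = 0.106) and without Cu replicate 1, and that of *Actn3* without Cu replicate 2. The same list gave a median of -0.24 to -0.28 in the 3 other lines, over the 30 to 33 members tested there. The number called lower was 6 when genes with at least 1 count were kept. With DESeq2 it was 2, as with both Zn libraries of the line added. In the fit of 23 libraries and in a test against a fold of 1.2 it was 0. Lower DEGs made up 1.3% of all genes tested. *Myog*, the factor of terminal differentiation, was at 10.9 and 8.26 CPM in NT and 6.45 and 6.94 CPM in Cu cells.

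Genes of proliferation and of energy metabolism gave no call. Of 46 genes of DNA replication and S phase 41 had a log2 fold change above 0, but the changes were small (median 0.09, range -0.04 to 0.33). *Rrm2*, a subunit of ribonucleotide reductase and the member of highest level, had a log2 fold change of 0.22 (edgeR adjusted p = 0.0890). Without NT replicate 1 its log2 fold change was 0.298. The median was 0.04 over 48 genes of G2 and mitosis, 0.08 over 25 glycolytic genes, 0.05 over 76 nuclear genes of oxidative phosphorylation, -0.10 over 27 genes of sterol synthesis and 0.05 over 27 SWI/SNF subunits. Of 17 interferon-stimulated genes, *Oasl2* (-1.59, at 2.59 and 1.92 CPM in NT) and *Ifi27* (-0.38) fell. The call of *Ifi27* was lost without Cu replicate 1 (edgeR adjusted p = 0.135), and that of *Oasl2* without Cu replicate 2 or NT replicate 1 (0.106 and 0.0735). Of 49 replication-dependent histone genes, which have near-identical copies, *H3c13* was the only DEG (0.52), and over all genes tested 2.68% were DEGs.

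**Figure D4:**
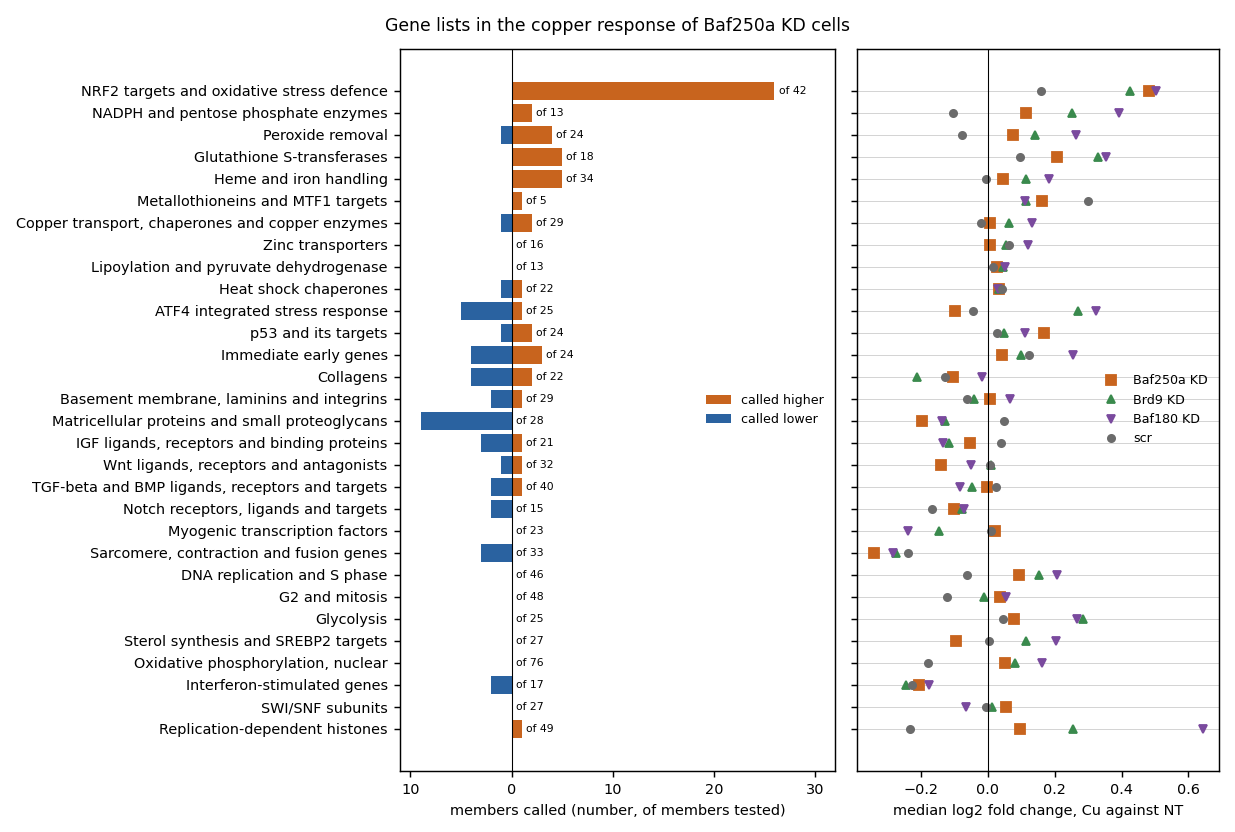
Left, number of members of each gene list that were called higher (orange, to the right) or lower (blue, to the left) with Cu in *Baf250a* KD cells, with the number tested. Right, median log2 fold change with Cu in *Baf250a* KD, *Brd9* KD, *Baf180* KD and scr cells, each over the members also tested in that line. The members can thus differ between lines, as for collagens (22 in *Baf250a* KD, 18 in scr). The list of NRF2 targets has 26 of 42 members called higher, against 1.38% of all genes tested. Its median is 0.48 in *Baf250a* KD cells.

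Outside the pathway lists, the largest rises among DEGs with a mean of at least 5 CPM included *Krt14*, a basal keratin listed among the epithelial markers (4.32 and 4.08 CPM to 9.34 and 9.72 CPM, log2 fold change 1.17), and *Slc22a23*, an orphan transporter (10.7 and 8.31 CPM to 20.3 and 22.6 CPM, 1.16). Of the other epithelial markers *Cdh1* was at 0.54 to 0.75 CPM, and *Epcam*, *Krt5* and *Cldn4* were at 0 to 0.09 CPM. The largest falls included the serine protease *Htra3* (-1.001), *Insc* (-0.94), the ectonucleotidase *Enpp3* (-0.94), *Tenm4* (-0.89), *Gm7265* (-0.87), *Ranbp3l* (-0.87) and *Ano5* (-0.85). The calls of *Gm7265* and *Ano5* were lost without NT replicate 2 (edgeR adjusted p = 0.124 and 0.0518).

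Features that collect reads of ribosomal RNA were also among the largest rises. *CT010467.1*, on chromosome 17, was at 1109 and 831 CPM in NT but 4075 and 1233 CPM in Cu cells, and took 0.399% of the counts of Cu replicate 1 against 0.0841% to 0.122% in the other 3 libraries. *Gm23935* (6.64 and 3.19 CPM in NT, 57.6 and 18.2 CPM in Cu), *Lars2* (28.9 and 24.8 CPM in NT, 111 and 29.8 CPM in Cu) and *CT010467.2* (20.8 and 17.9 CPM in NT, 42.3 and 53.01 CPM in Cu) were called too. Cu replicate 1 was the highest library for 3 of these 4. Without it the log2 fold change of *CT010467.1* was 0.35 instead of 1.45, and that of *Lars2* was 0.15 instead of 1.41 and no longer called. With no library left out, DESeq2 called neither *CT010467.1* (adjusted p = 0.527) nor *Lars2* (0.624). Ribosomal RNA was digested before library preparation, and the part of that step in these values was not tested. A set of ribosomal RNA features that held the 4 named here, but not *Mir6236* or *Gm15564*, was then left out. This gave 402 DEGs, with 26 higher members of the NRF2 list. The mitochondrial tRNA *mt-Tl1* rose as well (log2 fold change 1.09).

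The same comparison was made in each other line with its own Cu and NT libraries, so no library was shared. By the same test Cu gave 3 DEGs of 14017 in scr (0.0214%), 2169 of 15022 in *Baf180* KD (14.4%) and 77 of 14678 in *Brd9* KD cells (0.525%). Of the 77 *Brd9* KD DEGs, 57 were also DEGs of *Baf250a* KD cells (74.0% of the former and 14.4% of the latter), all in the same direction. Of the *Baf180* KD DEGs, 184 were shared (8.48% of the former, 46.5% of the latter), and 175 of them had the same sign. The 3 scr DEGs were all DEGs here as well, with the opposite sign.

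The 3 scr DEGs were *Lars2*, *Mir6236* and *Gm15564*, which changed by -4.96, -7.28 and -8.02 on the log2 scale in scr and by 1.41, 4.18 and 2.41 in *Baf250a* KD cells. The scr NT libraries also held the highest shares of *CT010467.1* in the study, at 1.61% and 4.57% of their counts. Of the 204 higher DEGs, those with a log2 fold change above 0 numbered 195 of 203 tested in *Brd9* KD, 176 of 204 in *Baf180* KD and 154 of 201 in scr cells. Of the 192 lower DEGs they numbered 17 of 181, 29 of 187 and 52 of 163. Over all genes tested the shares above 0 were 49.4%, 48.8% and 51.4%. The median log2 fold change of the higher DEGs was 0.32 in *Brd9* KD, 0.29 in *Baf180* KD and 0.15 in scr cells.

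For antioxidant genes the responses of the 4 lines stood side by side as follows. *Nqo1* changed by 1.27 in *Baf250a* KD, 1.07 in *Brd9* KD, 1.00 in *Baf180* KD and 0.66 in scr cells on the log2 scale, where only scr did not pass its own test. *Gsta4* changed by 1.36, 1.18, 0.87 and 0.96 and *Hmox1* by 1.00, 0.75, 0.84 and 0.47 in the same order. The median of the NRF2 list was 0.48, 0.43, 0.50 and 0.16. The difference from scr was 0.62 for *Nqo1* (SE 0.22, edgeR adjusted p = 0.532) and 0.40 for *Gsta4* (SE 0.19, edgeR adjusted p = 0.581), and did not pass the test. Levels without metal differed between the lines: *Nqo1* was at 64.9 ± 1.23 CPM in *Baf250a* KD and 12.9 ± 0.459 CPM in scr NT cells (SD, n = 2), and *Gsta4* at 90.2 ± 7.82 and 276 ± 3.29 CPM.

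Several of the matrix genes that fell in *Baf250a* KD cells were nearly silent in scr cells. *Col6a1* averaged 363 CPM in *Baf250a* KD NT and 3.15 CPM in scr NT libraries, *Itga11* 74.8 and 0.19 CPM, and *Igf1* 34.0 and 0.17 CPM. *Col3a1* and *Igfbp5* were expressed in both (1015 and 1672 CPM in scr NT), and changed by -0.22 and -0.49 with Cu in scr. *Nr4a1* changed by -1.48 in *Baf250a* KD, 0.18 in *Brd9* KD, 0.58 in *Baf180* KD and -0.01 in scr cells.

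The difference between the Cu responses of *Baf250a* KD and scr cells, tested in 1 fit of 23 libraries, passed in 2 of 17296 genes (0.0116%), with 1454 at an unadjusted p under 0.05. *Wnt4* rose by 1.01 in *Baf250a* KD cells, and in scr cells it was at 12.7 ± 2.58 CPM in NT and 10.5 ± 0.412 CPM in Cu (SD, n = 2, log2 fold change -0.28). The difference was 1.31 (SE 0.19, edgeR adjusted p = 0.0131). *Islr*, a secreted immunoglobulin-superfamily protein of mesenchymal cells, was at 417 and 377 CPM in NT and 339 and 333 CPM in Cu *Baf250a* KD cells. Its log2 fold change there was -0.24 (edgeR adjusted p = 0.0589), and -0.32 without NT replicate 2. In scr cells it was at 20.8 ± 2.13 CPM in NT and 8.56 ± 0.746 CPM in Cu (log2 fold change -1.27, edgeR adjusted p = 0.123), a difference of 1.06 (SE 0.15, edgeR adjusted p = 0.0119). Neither difference passed when the 8 libraries of the 2 lines were fitted alone (edgeR adjusted p = 0.0723 for each), or without Cu replicate 1 or Cu replicate 2 of *Baf250a* KD or Cu replicate 2 of scr (0.0504 to 0.197). That of *Wnt4* was also lost without NT replicate 1 or NT replicate 2 of *Baf250a* KD or NT replicate 2 of scr (0.0799 to 0.158). DESeq2 called 21 genes.

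Against *Baf180* KD cells no difference passed (0%) in edgeR, with 2422 of 17296 genes at an unadjusted p under 0.05 and the lowest adjusted p, 0.0715, in *Nr4a1* (difference -2.10, SE 0.33). DESeq2 called 115 genes, and edgeR called 181 when only the 8 libraries of both lines were fitted and 55 without *Baf180* KD Cu replicate 2. Against *Brd9* KD cells no difference passed either (0%), with 672 genes at an unadjusted p under 0.05, a lowest adjusted p of 0.420 and 2 genes called by DESeq2. *Wnt4*, which differed from scr, changed with Cu by 1.04 where *Baf180* and by 0.77 where *Brd9* was depleted, and its differences from these were -0.06 (SE 0.19) and 0.19 (SE 0.21).

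**Figure D5:**
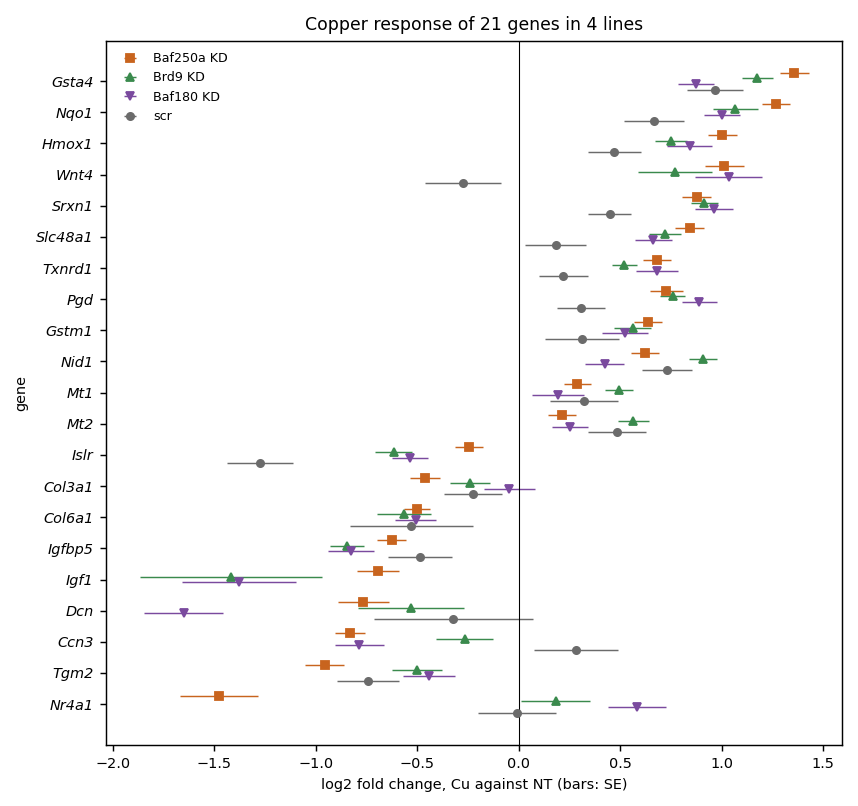
Log2 fold change with Cu (horizontal axis) of named genes in *Baf250a* KD, *Brd9* KD, *Baf180* KD and scr cells, each from the fit of its own 4 libraries, with bars for the SE. *Wnt4* lies above 0 in the 3 KD lines and at -0.28 in scr, and *Nr4a1* lies at -1.48 in *Baf250a* KD cells and between -0.01 and 0.58 in the others. *Igf1* was too low to be tested in scr.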

How the data were processed

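RNA was sequenced after RNase H removal of ribosomal RNA, from strand-specific libraries. The authors aligned reads to mm10 with STAR, kept unique alignments and counted them per gene and by strand with featureCounts, and the deposited values are whole-number counts of 55291 gene symbols, not normalized. Other deposited tables, which hold the authors' own DESeq2 comparisons, were not used. Groups came from sample titles.

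Counts were analysed in R 4.3.3 with edgeR 4.0.16 (filterByExpr, TMM, glmQLFit, glmQLFTest, Benjamini-Hochberg over all genes tested, adjusted p under 0.05). The main fit used the 4 libraries of the comparison. Differences between lines used 1 mean per group in 23 libraries, leaving out *Baf250a* KD Zn replicate 2 (495778 counts). SE is the log2 fold change over the square root of F. CPM in the text share TMM factors over the 23 libraries. With 2 replicates per group, p-values rest on a spread pooled across genes. Where leaving out a library left 1 in a group, that library was assumed to vary like the others. Depth limits low genes most. The scripts were tested on simulated counts. Gene positions, GC content and lengths are from GENCODE M21 (GRCm38), found for 14498 of the 14786 genes tested, and promoters from RefSeq.

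The members and gene lists were chosen with earlier results of these data known. Named genes were *Arid1a*, metal-response genes that the paper names, up to 15 DEGs of largest change per direction with a mean of at least 5 CPM and no overlap, up to 6 called members per list (or, where fewer than 2 were called, the 2 of highest level), and up to 5 genes per direction for each difference. *Gclc*, *Gclm*, *Gsr*, *Gss*, *Abcc1*, *Abcc4*, *Dusp1*, *Thbs2*, *Postn*, *Spp1*, *Myog*, *Mir6236*, *Gm15564* and several marker genes fall outside this rule, were chosen after their values were seen and were not followed singly through the alternatives. Alternatives were DESeq2 1.42.0, edgeR's likelihood ratio test, RLE and upper quartile scaling, other filters, fits with other libraries, a block for replicate number, a GC and length offset (splines, 5 degrees of freedom), thinned counts, glmTreat at 1.2-fold, leaving out each library and, added after seeing the data, leaving out ribosomal RNA features.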

Additional observations from a re-analysis of the deposited data

Results flagged for a closer look

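Among the genes named, the Cu response of 2 differed between *Baf250a* KD and scr cells by a test of the difference itself. For *Wnt4* the difference of the log2 fold changes was 1.31 (edgeR adjusted p = 0.0131). In *Baf250a* KD cells Cu raised it in both libraries (20.5 and 22.2 CPM in NT, 40.8 and 45.6 CPM in Cu), and in scr cells the means were 12.7 and 10.5 CPM. For *Islr* the difference was 1.06 (edgeR adjusted p = 0.0119), with 417 and 377 CPM in NT and 339 and 333 CPM in Cu *Baf250a* KD cells and means of 20.8 and 8.56 CPM in scr cells. The difference was not called in 7 of 15 alternative settings for *Wnt4* and in 4 of 15 for *Islr*, among them the fit of only the 8 libraries of both lines (edgeR adjusted p = 0.0723 for each) and the fits without either *Baf250a* KD Cu library. Groups of 2 libraries are too small to test for a library far from the others.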

How the results depend on the processing

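The 396 DEGs of the Cu response became 63 when 23 libraries shared the spread (62 of them among the 396), 187 with 6 libraries of the line, 620 with the GC and length offset and 83 with glmTreat. Leaving out each library gave 262 to 716, the lowest without Cu replicate 2 and the highest without NT replicate 1. DESeq2 gave 286, with 256 shared, and the other settings 354 to 585. Of the 87 named genes that were called, 61 lost the call with 23 libraries, 45 with glmTreat, 19 with 6 libraries of the line, 9 with DESeq2, which gave no adjusted p for 10 of them, and 2 to 14 when 1 library was left out. Of the genes followed singly through the alternatives, only *Atp7a*, which was not called, changed sign. Leaving out 1 library gave it log2 fold changes of -0.18 to 0.013, the latter without Cu replicate 2. Most uncalled genes named only for their level were not followed. The higher members of the NRF2 list numbered 15 to 27 over all settings. The fall of *Arid1a* between NT libraries of *Baf250a* KD and scr ranged from -1.56 to -1.52. Leaving out a set of ribosomal RNA features, which did not hold *Mir6236* or *Gm15564*, was chosen after seeing the data and gave 402 DEGs.

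The difference from scr passed in 2 genes, but in 21 with DESeq2, 484 when genes with at least 1 count were kept, 5 (neither of the 2 among them) with only the 8 libraries of both lines and 0 to 8 when 1 library was left out. Against *Baf180* KD the 0 became 115 with DESeq2, 720 with genes of at least 1 count, 181 with 8 libraries, 1 with all 24 libraries and 0 to 55 when 1 library was left out. Against *Brd9* KD the 0 became 2 with DESeq2, 28 with genes of at least 1 count and 0 to 2 when 1 library was left out. The cause of these shifts was not tested.

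Deviations of same-numbered Cu and NT libraries of *Baf250a* KD correlated at -0.03 over 10416 genes. The other lines were not examined in this way, so whether the replicate numbers pair the samples was not settled. With the replicate number as a block there were 468 DEGs (374 shared) and 11 genes that differed from scr, with 0 against either other line. Low counts and 2 replicates per group limit what small changes could be detected.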
